A study of Homo sapiens with 15 samples.

Results

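Homologous recombination copies the sister chromatid to mend broken DNA, and the Fanconi pathway unhooks crosslinks that tie both DNA strands together at stalled replication forks. The 39 human genes described here encode proteins of these pathways and the kinases that signal to them. They were listed by name, with no cut on a measured value, but with earlier results of these data known. All 39 were found among the 60649 human genes in the table and passed the filter on low counts. Both pathways work mainly in S and G2 phase, when a sister chromatid is present, and many of their genes are known to be transcribed with the DNA replication genes.

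The tumours grew under the skin of BALB/c nude mice, which lack a thymus, from transplanted cells of the established human line A549, a lung adenocarcinoma. Each of 3 groups has 5 tumours, with 1 library per tumour. For the stress group the labels put restraint of the mice 7 days ahead of transplantation. For the post-stress group they put it 12 days after it, and no-stress mice were left unrestrained. The labels do not give the length of restraint, the sex or age of the mice, or the day of collection, and they name only the line, so that every tumour derives from A549 cells. Nothing states that tumours of a group came from separate litters or days, so the p-values measure only the spread between these tumours.

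Counts per library ran from 16729091 to 19680449, of which 12877165 to 15892705 fell on human genes. Mouse genes took 18.6% to 24.6% of counts in stress tumours, 12.4% to 23.0% in post-stress tumours and 15.6% to 30.2% in no-stress tumours, where tumours 1 and 5 were the highest. Of 10 A549 or epithelial markers, 7 exceeded 100 CPM (counts-per-million of the human counts, scaled with TMM) in every library, while KRT19 stayed under 1. Of 23 leukocyte and stroma genes read on the human genome, 13 stayed under 1 CPM in every library, MS4A1 was at 0, and their summed level was 130.9 to 186.9 in stress, 95.5 to 232.8 in post-stress and 123.3 to 220.6 in no-stress tumours. COL1A1 alone averaged 106.3 CPM in stress and 120.2 CPM in no-stress tumours, beside mean sums of 159.8 and 160.2, so the sum mostly reflects 1 gene. COL1A2 and COL3A1 stayed under 1 CPM. The 9 of the 23 genes that were tested had 5 positive and 4 negative log2 fold changes with stress (-0.60 to 1.46), and none was called in edgeR (1 at an unadjusted p under 0.05). The part that such reads have in the results was not tested. Each group has 5 tumours throughout, and values within a group are listed in the order of the tumour numbers.

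Promoter windows of 300 bases, from 250 before to 50 after 1 RefSeq start per gene, were available for 34 of the 39 genes (GRCh38.p14), and 5 are printed as examples. The window of RBBP8, which was called lower in every alternative fit and held none of the letters searched, is not printed. EXO1 and BRIP1 were lower with stress, with E2F letters in the first and inverted CCAAT letters in the second, and MRE11 differed least from no stress in its role group. FANCD2, lower with E2F letters in its window, and CHEK2, the 1 higher member, were added after their values were seen. Capitals mark the E2F letters searched (TTTGGCGC, TTTCCCGC, TTTCGCGC or TTTGCCGC), the CHR letters (TTTGAA or TTCGAA) and CCAAT, on either strand. Each sequence is read 5′ to 3′ on the strand of its gene, namely the plus strand at chr1:241847954-241848253 for EXO1 and at chr3:10026187-10026486 for FANCD2, and the minus strand at chr17:61863479-61863778 for BRIP1, at chr22:28741771-28742070 for CHEK2 and at chr11:94493795-94494094 for MRE11.
EXO1: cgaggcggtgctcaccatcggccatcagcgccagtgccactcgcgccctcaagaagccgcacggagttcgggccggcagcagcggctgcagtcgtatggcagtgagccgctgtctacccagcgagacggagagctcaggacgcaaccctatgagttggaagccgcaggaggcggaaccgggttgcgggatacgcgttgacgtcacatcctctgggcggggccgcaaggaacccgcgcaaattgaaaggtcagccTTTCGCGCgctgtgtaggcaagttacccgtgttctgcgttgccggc
FANCD2: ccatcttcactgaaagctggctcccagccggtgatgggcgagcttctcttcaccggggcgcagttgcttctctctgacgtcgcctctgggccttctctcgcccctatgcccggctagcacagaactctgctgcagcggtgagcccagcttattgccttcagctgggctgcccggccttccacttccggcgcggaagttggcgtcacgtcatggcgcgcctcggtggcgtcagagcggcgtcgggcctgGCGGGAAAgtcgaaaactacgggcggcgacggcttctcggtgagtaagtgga
BRIP1: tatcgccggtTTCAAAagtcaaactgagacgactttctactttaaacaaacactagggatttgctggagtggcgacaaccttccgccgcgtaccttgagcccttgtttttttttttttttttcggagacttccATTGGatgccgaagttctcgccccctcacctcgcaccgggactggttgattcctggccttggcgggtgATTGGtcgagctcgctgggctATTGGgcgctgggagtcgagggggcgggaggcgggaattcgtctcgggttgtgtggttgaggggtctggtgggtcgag
CHEK2: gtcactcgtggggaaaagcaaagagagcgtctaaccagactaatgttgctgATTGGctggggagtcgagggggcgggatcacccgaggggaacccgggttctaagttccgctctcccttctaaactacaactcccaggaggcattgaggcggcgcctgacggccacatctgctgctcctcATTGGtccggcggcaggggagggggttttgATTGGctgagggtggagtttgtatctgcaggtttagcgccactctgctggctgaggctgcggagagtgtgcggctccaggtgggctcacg
MRE11: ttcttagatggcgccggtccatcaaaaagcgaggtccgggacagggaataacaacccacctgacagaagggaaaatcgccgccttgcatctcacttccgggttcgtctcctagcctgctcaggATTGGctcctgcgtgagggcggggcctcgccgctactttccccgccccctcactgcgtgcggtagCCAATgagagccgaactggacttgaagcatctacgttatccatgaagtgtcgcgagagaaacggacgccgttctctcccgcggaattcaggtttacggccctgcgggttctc

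E2F factors and the DREAM complex are the known readers of E2F and CHR letters in cell cycle promoters, and NF-Y reads CCAAT. E2F letters occurred in the windows of EXO1, XRCC2, FANCA, FANCC and FANCD2, which are 5 of 34 members (14.7%), against 3.33% of 27305 promoters in the same table. CHR letters occurred in 4 members (11.8%, against 16.6% of all promoters), and CCAAT in 16 members (47.1%, against 35.7%). All 5 members with E2F letters were among the 12 members with a window that were called lower with stress, and none of the 21 members that were not called had such letters. That split holds for the fit with all tumours. Without no-stress tumour 1 none of these 5 members was called. BRIP1 and RBBP8, which were still called lower in that fit, had no E2F letters in their windows. By the same split, 3 of the 12 and 1 of the 21 had CHR letters, while 4 of the 12 and 11 of the 21 had CCAAT, as did CHEK2. Over the 11014 tested genes with a window, 12.4% of the 573 with E2F letters were called lower with stress, against 5.88% of all. A match describes the letters in the window, and BARD1, BRCA1, RBBP8 and RAD51D were called lower with none of the 3 motifs there. Genes can have several starts and only 1 was searched, which lay within 250 bases of the outermost GENCODE 29 start in 24 of the 34 members. In the other 10 it lay farther away, among them RBBP8 (135067 bases into the gene), FANCC (109087 bases), RAD51D (1764 bases) and CHEK2 (602 bases), while that of BRCA1 lay 82 bases before the annotated gene. The E2F letters of FANCC and the lack of motifs in RBBP8, RAD51D and BRCA1 thus hold for those starts alone.

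**Figure D1:**
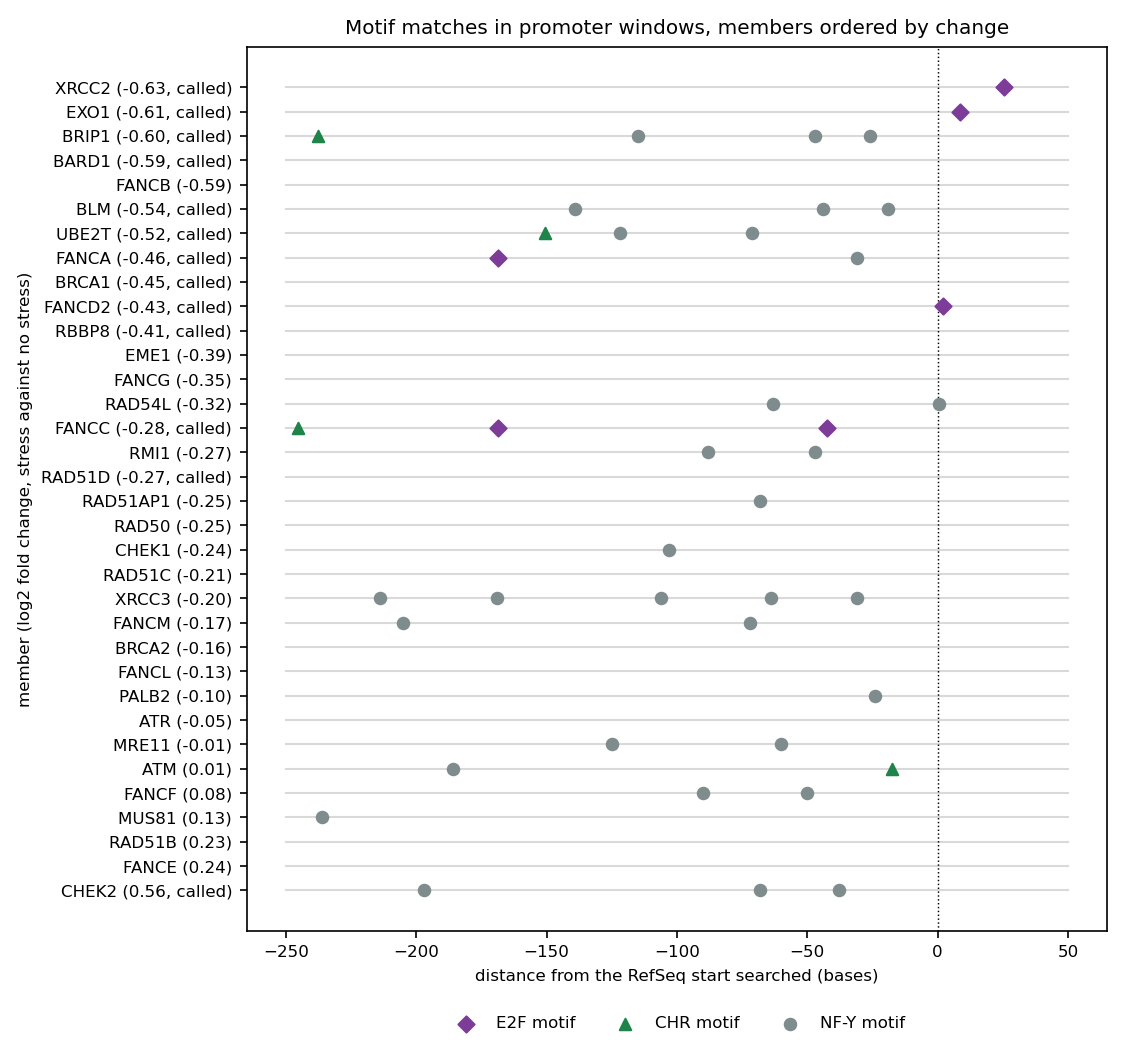
Distance of each motif match from the RefSeq start searched, in bases, for the 34 members with a promoter window, ordered from the most negative to the most positive log2 fold change of stress against no stress (in brackets). Purple diamonds mark E2F, green triangles CHR and grey circles NF-Y (CCAAT) letters. In the fit with all tumours the 5 members with E2F letters all lie among those called lower. Without no-stress tumour 1 none of these 5 was called.

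Stress tumours held less RNA of many of these genes than no-stress tumours. Of the 39 members, 13 fell, 1 rose and 25 did not pass the test (quasi-likelihood test of edgeR, with p adjusted after Benjamini-Hochberg over all 15435 tested human genes and called under 0.05). The 13 lower members make up 33.3% of the list, while 5.22% of all tested genes were called lower. The 1 higher member, CHEK2, makes up 2.56%, while 5.23% of all tested genes were called higher. The median log2 fold change was -0.27 over the members and -0.01 over all tested genes, with members between -0.64 and 0.56. The changes were modest in size: folds of the called lower members lay between 0.645 and 0.83. In 7 members (17.9%) all 5 stress tumours lay below all 5 no-stress tumours, which held for 4.7% of all tested genes, and CHEK2 was the only member with all 5 above, which held for 4.09%. These samples are bulk tumours, so fewer cycling cells and less RNA per cell cannot be told apart.

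The no-stress tumours were not alike, and this bears on the counts. No-stress tumour 1, which had the highest share of mouse counts, had the highest level of the group in 24 of the 39 members. No-stress tumour 5, with the next highest share, had the lowest in 19 members. Without no-stress tumour 1, BRIP1 and RBBP8 were the only members called lower (2 in all) and CHEK2 stayed higher, and without both tumours 1 and 5 the same 2 members were lower and CHEK2 was higher. Calls over all tested genes, higher and lower together, fell as well. They went from 1613 to 661 without no-stress tumour 1, and to 546 without both tumours. Other single tumours mattered as well: the count of lower members was 5, 5 and 8 without no-stress tumours 2, 3 and 4, it was 3, 6, 5 and 6 without stress tumours 1, 2, 3 and 5, and it was 8 without post-stress tumour 4. In the same order, calls over all tested genes were 1424, 864 and 1358, then 782, 1086, 1043 and 1072, and 1453. Whether the members lost more calls than other genes was not tested. BRIP1, RBBP8 and CHEK2 passed in all 25 alternative fits, and the other 11 called members each lost their call in some.

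**Figure D2:**
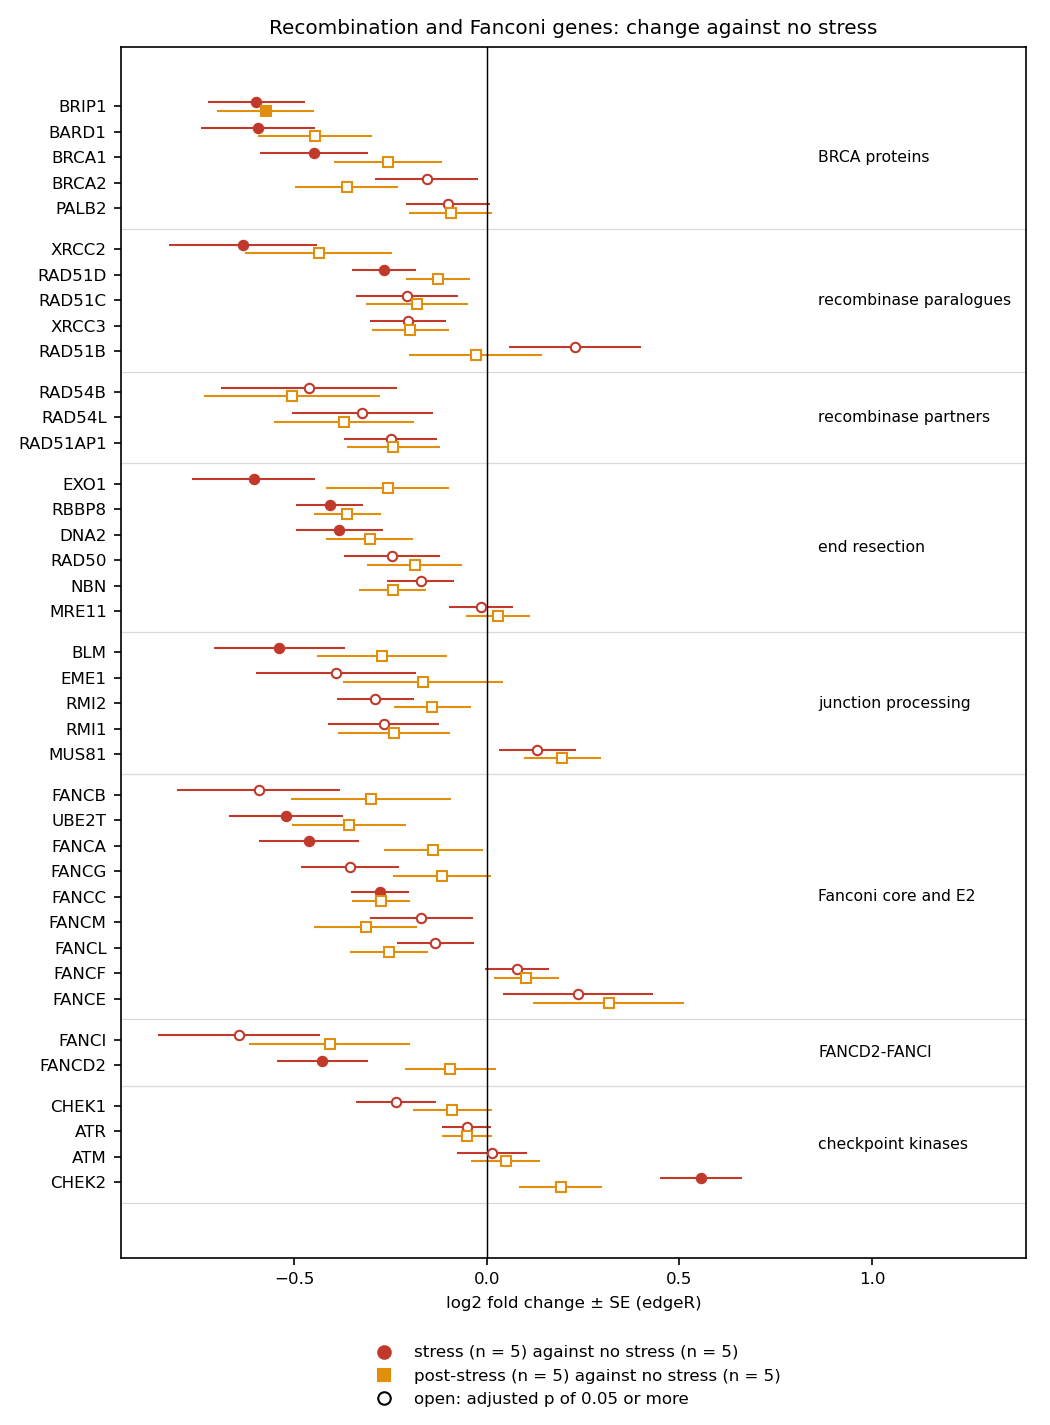
Log2 fold change with its SE for the 39 members by role, for stress (red circles) and post-stress (orange squares), each against the same 5 no-stress tumours. Filled symbols passed an adjusted p of 0.05; with stress 13 members are filled left of 0 and CHEK2 right of it, with post-stress BRIP1 alone is filled.

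The BRCA proteins bring the recombinase to resected DNA, and 3 of the 5 genes fell with stress: BRIP1, BARD1 and BRCA1. BRIP1, the helicase that binds the BRCT repeats of BRCA1 and is also Fanconi protein J, lies at chr17:61681266-61863521 (hg38). It had 16.7, 20.2, 18.6, 16.8 and 20.7 CPM in stress tumours, 18.6, 22.6, 15.2, 17.9 and 20.4 CPM in post-stress tumours, and 33.4, 33.6, 26.7, 23.4 and 24.02 CPM in no-stress tumours. Every restrained tumour lay below every unrestrained one. The fold of stress against no stress was 0.66 (log2 fold change -0.60, SE 0.13, edgeR adjusted p = 0.00821). BARD1, the obligate partner of BRCA1 in its ubiquitin ligase, had 12.0, 14.0, 15.4, 12.9 and 15.6 CPM in stress, 15.1, 15.5, 11.4, 15.8 and 19.8 CPM in post-stress and 27.7, 22.7, 20.3, 17.8 and 17.0 CPM in no-stress tumours. Stress and no-stress tumours did not overlap, and the log2 fold change was -0.59 (SE 0.15, edgeR adjusted p = 0.0185).

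BRCA1 itself had 47.5, 47.0, 55.6, 65.9 and 55.7 CPM in stress, 54.4, 73.0, 54.4, 63.4 and 65.4 CPM in post-stress and 100.1, 68.5, 71.5, 78.2 and 53.1 CPM in no-stress tumours. No-stress tumour 5 lay among the stress tumours, and the fall of 0.45 on the log2 scale (SE 0.14) barely passed, with an edgeR adjusted p of 0.04997 and a call in 3 of 25 alternatives. PALB2, the bridge between BRCA1 and BRCA2, had 16.1, 16.9, 19.6, 24.1 and 18.4 CPM in stress, 17.7, 19.9, 17.7, 18.4 and 21.96 CPM in post-stress and 21.6, 19.2, 18.7, 21.9 and 20.7 CPM in no-stress tumours. These ranges overlapped widely (log2 fold change of stress against no stress -0.10, SE 0.11, edgeR adjusted p = 0.5998). BRCA2, which loads the recombinase, averaged 17.8 ± 2.43 CPM in stress and 19.8 ± 3.49 CPM in no-stress tumours (SD, n = 5; adjusted p = 0.491).

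Of the 5 paralogues of the recombinase, which stabilise its filament, XRCC2 and RAD51D fell with stress. XRCC2 had 11.6, 7.81, 11.2, 14.3 and 16.1 CPM in stress, 11.1, 17.9, 13.5, 12.5 and 14.97 CPM in post-stress and 22.9, 23.3, 13.3, 19.5 and 15.6 CPM in no-stress tumours. It had the lowest fold of the called members, 0.645 (log2 fold change -0.63, SE 0.19, edgeR adjusted p = 0.0439), but stress tumours 4 and 5 lay within the no-stress range. RAD51D had 24.3, 21.96, 24.8, 26.2 and 24.3 CPM in stress, 25.5, 25.2, 31.1, 26.9 and 25.2 CPM in post-stress and 29.6, 29, 29.7, 26.1 and 31.9 CPM in no-stress tumours. Its change was small but narrow in spread (fold 0.83, log2 fold change -0.27, SE 0.08, edgeR adjusted p = 0.0481), and stress tumour 4 was level with no-stress tumour 4. RAD51D shares 1068 of its 11304 exonic bases with other annotated genes, among them RAD51L3-RFFL on the same strand, so its counts are uncertain there. XRCC2 kept its call in 12 and RAD51D in 6 of the 25 alternatives.

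RAD51B, the paralogue with the lowest level, differed in sign from the other 4. It had 4.74, 6.41, 7.54, 4.33 and 5.43 CPM in stress, 5.46, 4.24, 5.82, 4.20 and 4.06 CPM in post-stress and 5.20, 5.05, 4.77, 4.94 and 4.31 CPM in no-stress tumours. Stress tumours 2, 3 and 5 lay above every no-stress tumour and stress tumours 1 and 4 below most of them, and the log2 fold change of 0.23 (SE 0.17) did not pass (edgeR adjusted p = 0.427). RAD51C averaged 24.3 ± 1.79 CPM in stress and 28.0 ± 6.05 CPM in no-stress tumours (adjusted p = 0.344). XRCC3 averaged 15.7 ± 0.735 and 18.1 ± 1.93 CPM in the same groups (adjusted p = 0.198), and shares 5756 of its 7507 exonic bases with KLC1 on the other strand, so its level is uncertain.

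The 3 partners of the recombinase, the DNA translocases RAD54L and RAD54B and the joint molecule factor RAD51AP1, all had negative log2 fold changes with stress, and none passed the test, at an unadjusted p of 0.05 either (0 of 3 in edgeR, DESeq2 and limma-voom after adjustment). RAD51AP1 had 17.5, 19.2, 20.5, 18.1 and 19.97 CPM in stress, 18.03, 22.3, 18.7, 16.6 and 20.1 CPM in post-stress and 28.4, 23.8, 23.0, 21.5 and 16.5 CPM in no-stress tumours. No-stress tumour 5 had the lowest value of all 15 tumours, while the other 4 no-stress tumours lay above every stress tumour (log2 fold change -0.25, SE 0.12, edgeR adjusted p = 0.200). RAD54L had 6.47, 5.09, 7.27, 7.44 and 10.5 CPM in stress, 6.15, 8.96, 7.15, 6.87 and 6.42 CPM in post-stress and 11.2, 11.04, 7.99, 7.74 and 8.11 CPM in no-stress tumours. RAD54B, which shares 3139 bases with FSBP on its own strand, had 2.79, 2.16, 1.95, 2.43 and 2.47 CPM in stress, 1.86, 2.60, 3.51, 1.53 and 1.93 CPM in post-stress and 4.07, 3.06, 2.66, 3.73 and 2.75 CPM in no-stress tumours. In both genes 1 stress tumour reached into the no-stress range (RAD54L log2 fold change -0.32, SE 0.18, edgeR adjusted p = 0.276; RAD54B -0.46, SE 0.23, edgeR adjusted p = 0.209).

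End resection turns a break into the single-stranded DNA that recombination needs, and 3 of its 6 genes fell with stress: RBBP8, EXO1 and DNA2. RBBP8 encodes CtIP, which starts resection together with the MRN nuclease complex, and lies at chr18:22798261-23026488 (hg38). It had 26.4, 27.9, 28.3, 24.5 and 22.4 CPM in stress, 25.2, 26.9, 28.6, 26.6 and 26.3 CPM in post-stress and 39.5, 32.1, 32.8, 36.9 and 30.6 CPM in no-stress tumours. As with BRIP1, all 10 restrained tumours lay below the lowest unrestrained one (stress against no stress: fold 0.753, log2 fold change -0.41, SE 0.09, edgeR adjusted p = 0.00918). EXO1, an exonuclease of long-range resection, had 10.5, 14.2, 11.8, 11.3 and 15.2 CPM in stress, 12.4, 21.4, 17.2, 13.8 and 15.4 CPM in post-stress and 23.2, 22.9, 16.7, 18.3 and 14.8 CPM in no-stress tumours. Stress tumour 5 lay just above no-stress tumour 5, and the log2 fold change was -0.61 (SE 0.16, edgeR adjusted p = 0.0241).

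DNA2, the nuclease and helicase that works beside EXO1, averaged 13.7 ± 1.53 CPM in stress and 17.9 ± 1.66 CPM in no-stress tumours (SD, n = 5), with no overlap (log2 fold change -0.38, SE 0.11, edgeR adjusted p = 0.0400). The MRN complex itself did not pass. MRE11, its nuclease, had 35.0, 31.5, 30.8, 35.3 and 37.2 CPM in stress, 30.6, 38.4, 35.1, 32.8 and 38.1 CPM in post-stress and 36.8, 36.0, 32.6, 33.4 and 32.7 CPM in no-stress tumours. The ranges coincided, with a log2 fold change of -0.01 (SE 0.08, edgeR adjusted p = 0.934). RAD50 averaged 13.3 ± 1.37 and NBN 96.2 ± 7.73 CPM in stress tumours, against 15.7 ± 1.73 and 108 ± 11.4 CPM in no-stress tumours (adjusted p = 0.219 and 0.224). RAD50 shares 8027 of its 9771 exonic bases with other annotated genes, so its level is uncertain.

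**Figure D3:**
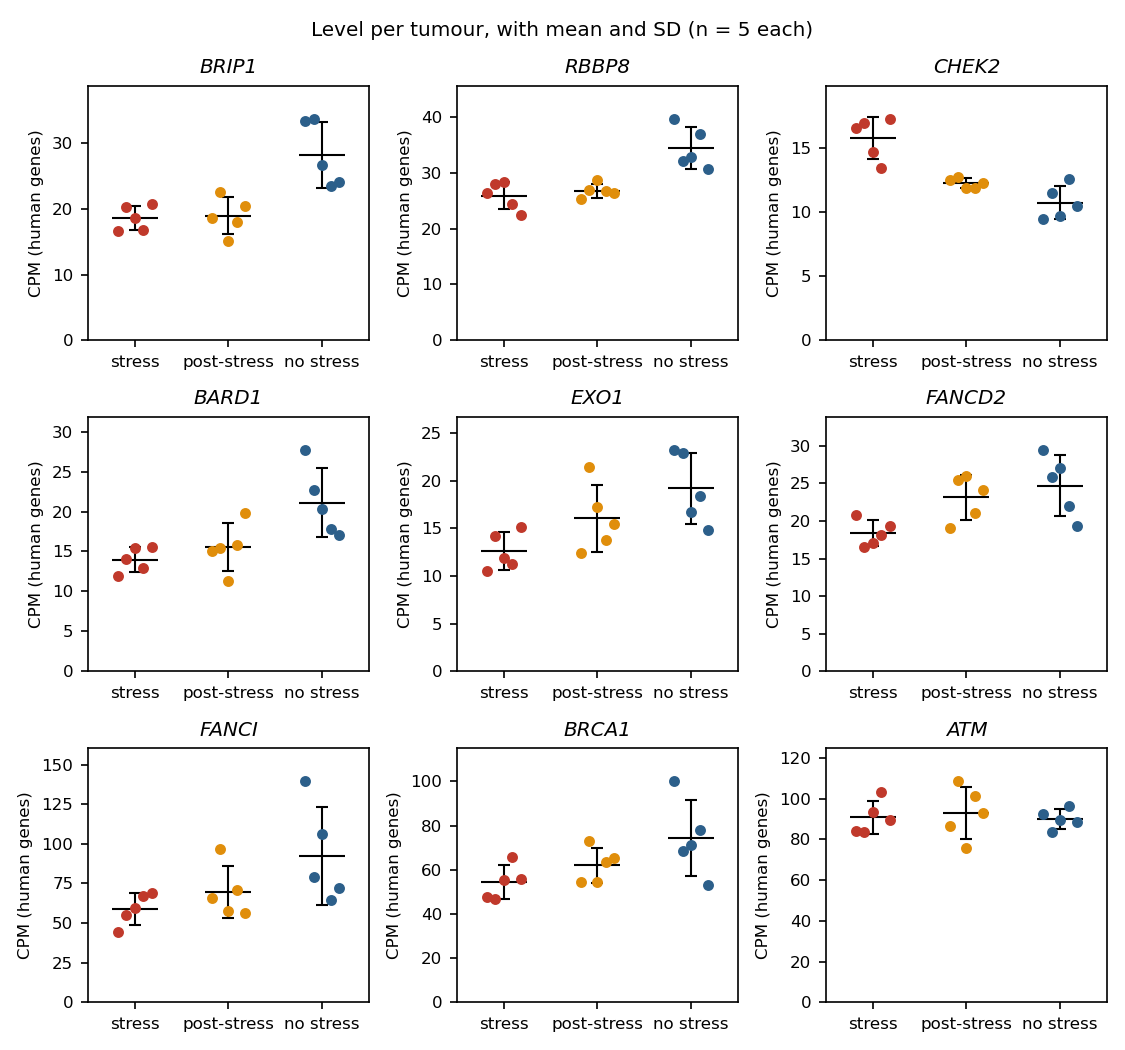
CPM of 9 members in each tumour (points), with group mean and SD (black), for stress, post-stress and no stress, n = 5 each, with axes from 0. BRIP1 and RBBP8 have all restrained tumours below the unrestrained ones, CHEK2 has the stress tumours above both other groups, and ATM overlaps in all 3 groups.

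Among the 5 genes that take joined DNA molecules apart, BLM fell with stress and 4 did not pass. BLM, the helicase that dissolves double Holliday junctions, had 6.85, 6.34, 8.35, 9.53 and 8.19 CPM in stress, 7.46, 13.1, 10.7, 7.79 and 8.13 CPM in post-stress and 13.4, 10.6, 12.7, 11.1 and 9.22 CPM in no-stress tumours. Stress tumour 4 was above no-stress tumour 5, and the log2 fold change of -0.54 (SE 0.17) had an edgeR adjusted p of 0.04997, with a call in 8 of 25 alternatives. RMI2, which joins BLM in the dissolvasome, had 12.6, 13.6, 13.2, 11.8 and 15.2 CPM in stress, 12.5, 14.9, 15.1, 14.7 and 16.3 CPM in post-stress and 18.4, 16.2, 15.8, 15.1 and 15.7 CPM in no-stress tumours. Stress tumour 5 was just above no-stress tumour 4, and RMI2 did not pass (log2 fold change -0.29, SE 0.10, edgeR adjusted p = 0.0720).

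The nuclease MUS81, which cuts junctions as a pair with EME1, had a positive fold change that did not pass. Its levels were 34.0, 30.8, 27.1, 27.9 and 33.1 CPM in stress, 36.9, 34.7, 31.8, 28.4 and 27.9 CPM in post-stress and 28.0, 31.0, 23.6, 29.4 and 27.6 CPM in no-stress tumours. The groups overlapped (log2 fold change 0.13, SE 0.10, edgeR adjusted p = 0.437). EME1 averaged 6.61 ± 1.46 CPM in stress and 8.69 ± 2.72 CPM in no-stress tumours (SD, n = 5; log2 fold change -0.39, adjusted p = 0.243). RMI1, the third dissolvasome protein in this list, averaged 14.4 ± 2.47 and 17.3 ± 2.48 CPM in the same groups (adjusted p = 0.253).

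The Fanconi core complex recognises crosslinks and ubiquitinates FANCD2 and FANCI, through its ligase subunit FANCL and the E2 enzyme UBE2T. Of these 9 genes FANCA, FANCC and UBE2T fell with stress, and in each of the 3 all stress tumours lay below all no-stress tumours. FANCC had 20.3, 24.2, 22.6, 22.5 and 21.7 CPM in stress, 21.6, 22.1, 22.2, 24.4 and 21.2 CPM in post-stress and 28.2, 25.7, 27.6, 27.9 and 25.5 CPM in no-stress tumours. Its fold was mild, 0.825, and its spread was low (log2 fold change -0.28, SE 0.08, edgeR adjusted p = 0.0273), and post-stress tumours also lay below every no-stress tumour. FANCA had 14.5, 14.8, 18.11, 16.3 and 17.6 CPM in stress, 15.6, 25.9, 20.2, 19.3 and 20.6 CPM in post-stress and 26.7, 24.8, 21.7, 20.6 and 18.15 CPM in no-stress tumours. Stress tumour 3 and no-stress tumour 5 were almost level (log2 fold change -0.46, SE 0.13, edgeR adjusted p = 0.0322). FANCA shares 2302 of its 9736 exonic bases with ZNF276 on the other strand, which averaged 26.7 ± 7.29 CPM in stress and 29.3 ± 3.30 CPM in no-stress tumours (adjusted p = 0.63), and reads there cannot be told apart without strand. UBE2T averaged 16.4 ± 1.72 CPM in stress and 23.5 ± 3.66 CPM in no-stress tumours (SD, n = 5; log2 fold change -0.52, SE 0.15, edgeR adjusted p = 0.0340).

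The other 6 core genes did not pass. FANCF, the adaptor of the complex, had 25.7, 27.9, 27.8, 24.9 and 23.7 CPM in stress, 26.0, 24.02, 26.2, 28.3 and 27.7 CPM in post-stress and 22.7, 22.8, 24.4, 28.1 and 25.2 CPM in no-stress tumours, and the groups overlapped (log2 fold change 0.08, SE 0.08, edgeR adjusted p = 0.596). FANCE, at 3.54 ± 0.535 CPM in stress and 3.01 ± 0.607 CPM in no-stress tumours, also had a positive fold change (0.24, adjusted p = 0.477). FANCB on the X chromosome had a log2 fold change of -0.59 (adjusted p = 0.0796) and FANCG of -0.35 (adjusted p = 0.0816). FANCM, the translocase that anchors the complex to DNA, had -0.17 (adjusted p = 0.450), and FANCL had -0.13 (adjusted p = 0.425). Over the core genes log2 fold changes ran from -0.59 to 0.24, with 7 negative and 2 positive.

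FANCD2 and FANCI form the clamp that the core complex ubiquitinates, and FANCD2 fell with stress. FANCD2 had 20.8, 16.5, 17.1, 18.2 and 19.4 CPM in stress, 19.1, 25.5, 25.9, 21.1 and 24.2 CPM in post-stress and 29.4, 25.8, 27.0, 21.99 and 19.4 CPM in no-stress tumours. No-stress tumour 5 lay within the stress range, and 4 of 5 no-stress tumours lay above it (log2 fold change -0.43, SE 0.12, edgeR adjusted p = 0.0304). FANCI had 44.1, 55.0, 59.7, 67.2 and 69.2 CPM in stress, 65.8, 96.8, 57.4, 71.1 and 56.6 CPM in post-stress and 139.5, 79.2, 106.3, 64.3 and 72.1 CPM in no-stress tumours. Its log2 fold change of -0.64 (SE 0.21) was the most negative of all 39 members and did not pass (edgeR adjusted p = 0.0648), and no-stress tumours ranged from 64.3 to 139.5 CPM. DESeq2 called it lower with an adjusted p of 0.0158, as did the edgeR fits without no-stress tumour 4 (adjusted p = 0.0397) and without post-stress tumour 2 (adjusted p = 0.0469).

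The 4 checkpoint kinases showed the one rise. CHEK2 encodes the effector kinase that ATM activates at double-strand breaks, and lies at chr22:28687743-28742422 (hg38). It had 16.6, 16.9, 14.7, 13.4 and 17.2 CPM in stress, 12.5, 12.7, 11.8, 11.8 and 12.3 CPM in post-stress and 9.41, 11.5, 9.66, 12.5 and 10.5 CPM in no-stress tumours. All 5 stress tumours lay above all 10 other tumours, and the fold against no stress was 1.47 (log2 fold change 0.56, SE 0.11, edgeR adjusted p = 0.00528). The call held in all 25 alternatives, where the highest adjusted p was 0.0451. The gene overlaps HSCB on the other strand over 301 of its 4493 exonic bases, and HSCB averaged 13.2 ± 1.62 CPM in stress and 12.9 ± 2.43 CPM in no-stress tumours (log2 fold change 0.03, edgeR adjusted p = 0.929). The 4 CHEK2 pseudogenes looked up had 0 counts in every library, which does not show where reads that match both CHEK2 and a pseudogene were placed.

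CHEK1, the effector kinase of ATR at stalled forks, had 13.2, 13.3, 13.9, 14.5 and 16.0 CPM in stress, 14.8, 15.3, 16.3, 14.7 and 17.3 CPM in post-stress and 19.1, 18.6, 15.7, 16.3 and 13.8 CPM in no-stress tumours. The groups overlapped, with no-stress tumour 5 inside the stress range, and CHEK1 did not pass (log2 fold change -0.24, SE 0.10, edgeR adjusted p = 0.156). ATM, the apical kinase of break signalling, had 84.3, 83.7, 93.5, 103.4 and 89.5 CPM in stress, 86.4, 108.6, 76.0, 101.5 and 93.2 CPM in post-stress and 92.4, 83.5, 89.5, 96.3 and 88.6 CPM in no-stress tumours. The 3 groups overlapped throughout (log2 fold change of stress against no stress 0.01, SE 0.09, edgeR adjusted p = 0.946). ATR averaged 102 ± 4.92 CPM in stress and 106 ± 2.48 CPM in no-stress tumours (SD, n = 5; adjusted p = 0.649).

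The members differ widely in level. Per kilobase of exon in no-stress tumours, NBN was the highest at 17.6 CPM per kb, followed by UBE2T at 14.2, FANCL at 12.3 and FANCI at 11.9. The lowest were FANCE at 1.12, RAD51B at 0.649 and RAD54B at 0.613 CPM per kb. The levels of UBE2T, FANCL and FANCI lie close together beside the spread of FANCI, 30.8 CPM around a mean of 92.3 CPM before division by length (SD, n = 5). Members called lower with stress occur at both high level (UBE2T at 14.2 and BRCA1 at 8.08 CPM per kb) and low level (BLM at 1.71 CPM per kb).

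The comparison of post-stress with no stress asks what differed where restraint was placed after transplantation, against the same 5 unrestrained tumours. One member, BRIP1, was called lower, which is 2.56% of the list beside 0.246% of all tested genes. No member was called higher by edgeR, DESeq2 or limma-voom, beside 0.596% of all tested genes, and scaling by library size alone turned the split over all genes from 92 higher and 38 lower into 59 higher and 62 lower. At an unadjusted p under 0.05, 12 of the 39 members were lower and none higher, beside 7.54% of all tested genes lower and 7.63% higher. The median log2 fold change of the members was -0.24, beside -0.27 with stress, and both comparisons use the same no-stress tumours.

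BRIP1 had a log2 fold change of -0.57 with post-stress (SE 0.13, edgeR adjusted p = 0.0394), and the call held in 13 of the 25 alternatives (adjusted p of 0.138 with the mouse share as covariate). It was lost without no-stress tumour 1, 2 or 3, stress tumour 3, or post-stress tumour 1, 3, 4 or 5, each left out alone, with an adjusted p of up to 0.139. RBBP8 had -0.36 (adjusted p = 0.0604), FANCC -0.28 (adjusted p = 0.0911) and BARD1 -0.45 (adjusted p = 0.158). In BRIP1, RBBP8 and FANCC all 5 post-stress tumours lay below all 5 no-stress tumours, which is 7.69% of the members beside 1.89% of all tested genes. Of other members called with stress, FANCD2 averaged 23.2 ± 2.95 CPM in post-stress and 24.7 ± 4.01 CPM in no-stress tumours (log2 fold change -0.10, adjusted p = 0.758). FANCA averaged 20.3 ± 3.70 CPM in post-stress and 22.4 ± 3.39 CPM in no-stress tumours (-0.14, adjusted p = 0.661), and CHEK2 averaged 12.2 ± 0.395 CPM in post-stress and 10.7 ± 1.30 CPM in no-stress tumours (0.19, adjusted p = 0.419).

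Stress and post-stress were also compared directly, and none of the 39 members was called by edgeR, DESeq2 or limma-voom, beside 0.0259% of all tested genes called higher and 0.013% called lower. At an unadjusted p under 0.05, 1 of the 39 members was higher and 3 were lower, beside 5.75% and 5.37% of all tested genes, so the members' share was near the background. Among them CHEK2 had a log2 fold change of 0.37 (SE 0.11, edgeR adjusted p = 0.175), with all 5 stress tumours above all 5 post-stress tumours, as in 0.952% of all tested genes. FANCD2 had -0.33 (SE 0.12, edgeR adjusted p = 0.282). The log2 fold changes of the 39 members ran from -0.35 to 0.37, with a median of -0.05. They were negative in 31 members and positive in 8, beside 7839 negative and 7596 positive over all tested genes.

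Averaged over the 39 members, the log2 CPM of a tumour was 4.02 to 4.20 with stress, 4.03 to 4.35 with post-stress and 4.19 to 4.57 with no stress. The group means were 4.11 ± 0.07 with stress, 4.18 ± 0.12 with post-stress and 4.37 ± 0.14 with no stress (SD, n = 5 each), and stress tumours varied least. Over 32 DNA replication and S phase genes the means were 4.70 ± 0.13 with stress, 4.89 ± 0.11 with post-stress and 5.19 ± 0.20 with no stress. Over 24 mitosis and G2/M genes they were 5.06 ± 0.11 with stress, 5.35 ± 0.16 with post-stress and 5.56 ± 0.25 with no stress. No-stress tumour 1 was the highest of all 15 tumours in each of the 3 lists, and stress tumour 1 was the lowest, level with stress tumour 2 for the replication genes. The part of the share of cycling cells in the change of the members was not tested.

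**Figure D4:**
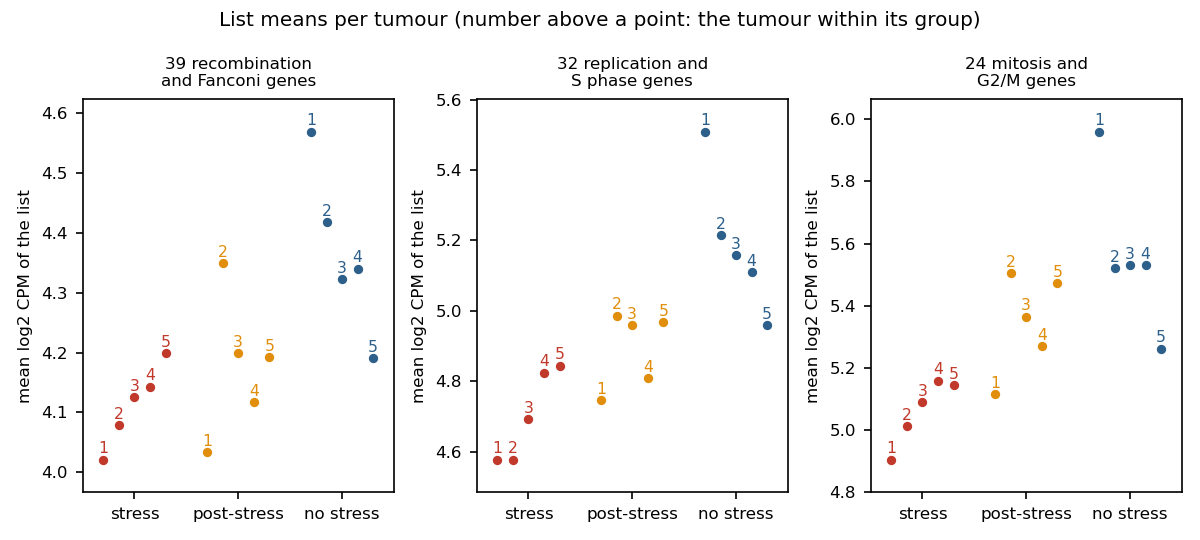
Mean log2 CPM of 3 gene lists in each tumour, for stress, post-stress and no stress (n = 5 each), with the tumour number above each point. No-stress tumour 1 is the highest point in all 3 panels, at 4.57 for the members, 5.51 for replication and 5.96 for mitosis genes.

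Other repair and cell cycle lists put the members in context. With stress, 24 of 32 replication and S phase genes were lower (median log2 fold change -0.48), as were 16 of 24 mitosis and G2/M genes (-0.56). None was higher in either list, while over all tested genes 5.22% were lower and 5.23% higher. Without no-stress tumour 1, the lower genes were 16 in the replication list and 8 in the mitosis list, and without no-stress tumours 1 and 5 they were 16 and 11. MCM6, a subunit of the replicative helicase, averaged 54.8 ± 6.06 CPM in stress and 89.4 ± 17.5 CPM in no-stress tumours (log2 fold change -0.71, edgeR adjusted p = 0.00252). CCNB1, the mitotic cyclin, averaged 61.4 ± 5.39 CPM in stress and 91.8 ± 17.98 CPM in no-stress tumours (-0.58, adjusted p = 0.00631).

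Of 37 further recombination and Fanconi genes outside the members, 5 were lower (13.5%) and 1 was higher (2.7%) with stress. Over all tested genes 5.22% were lower and 5.23% higher. The median log2 fold change of the 37 was -0.13, and none of them was called in edgeR without no-stress tumour 1. The lower ones included FIGNL1, an AAA ATPase that acts on recombinase filaments (-0.59, adjusted p = 0.0168), GEN1, a Holliday junction resolvase (-0.40, adjusted p = 0.0261), and RPA1, which coats single-stranded DNA (-0.31, adjusted p = 0.0215). The higher one was WDR48, a cofactor of the enzyme that removes ubiquitin from FANCD2, at 60.8 ± 7.06 CPM in stress and 49.8 ± 3.53 CPM in no-stress tumours (0.29, adjusted p = 0.0383). Of 15 tested checkpoint genes of 16 listed, 5 were lower (2 without no-stress tumour 1), among them H2AX, the histone variant phosphorylated at breaks (-0.65, adjusted p = 0.00528), TIMELESS of the fork protection complex (-0.57, adjusted p = 0.00534) and CLSPN, the mediator of CHEK1 activation (-0.67, adjusted p = 0.0196). WEE1, the kinase that restrains entry into mitosis, was the 1 higher gene of that list, at 47.5 ± 5.85 CPM in stress and 32.8 ± 6.38 CPM in no-stress tumours (log2 fold change 0.54, SE 0.13, edgeR adjusted p = 0.0134), and passed in all 25 alternatives.

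Repair pathways that do not copy a sister chromatid were read in the same way. Called lower with stress were 6.25% of end-joining, 7.14% of excision repair and 0% of mismatch repair genes, beside 5.22% of all tested genes. Their median log2 fold changes were -0.09, -0.16 and -0.16. Of 16 end-joining genes, PRKDC, the catalytic subunit of DNA-dependent protein kinase, was the 1 lower gene, at 253 ± 45.6 CPM in stress and 341 ± 20.5 CPM in no-stress tumours (-0.43, adjusted p = 0.0221). Of 28 excision repair genes 2 were lower, the uracil glycosylase gene UNG (-0.36, adjusted p = 0.00689) and DDB1 of the damage-binding complex (-0.27, adjusted p = 0.0285). Without no-stress tumour 1, no end-joining gene and 1 excision repair gene was lower. At an unadjusted p under 0.05 in edgeR with all tumours, 3 end-joining and 9 excision repair genes were lower and none was higher. None of 7 mismatch repair genes passed in edgeR, DESeq2 or limma-voom, with 3 lower at an unadjusted p under 0.05 (13.2% of all tested genes). Of 5 genes of theta-mediated end joining and its single-strand break partners, FEN1, LIG3 and PARP1 were lower (-0.69, -0.33 and -0.33, adjusted p = 0.00241, 0.0177 and 0.0223), and 1 of the 5 was lower without no-stress tumour 1. POLQ and XRCC1 were not called in edgeR. XRCC1 had a positive log2 fold change (0.28, edgeR adjusted p = 0.062), and DESeq2 called 1 of the 5 genes higher. With post-stress, FEN1 was lower (-0.51, adjusted p = 0.0373), as were 4 of the 32 replication genes in edgeR, 9 in DESeq2 and none in limma-voom (19 lower at an unadjusted p under 0.05 in edgeR). Neither FEN1 nor any of the replication genes was called with post-stress in edgeR without no-stress tumour 1, with the replicate block or with the mouse share as covariate. None of the 37 further recombination and Fanconi genes was called with post-stress by edgeR, DESeq2 or limma-voom. At an unadjusted p under 0.05 in edgeR, 12 of the 37 were lower and 3 higher, beside 7.54% and 7.63% of all tested genes. The median log2 fold change of the 37 was 0.01.

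**Figure D5:**
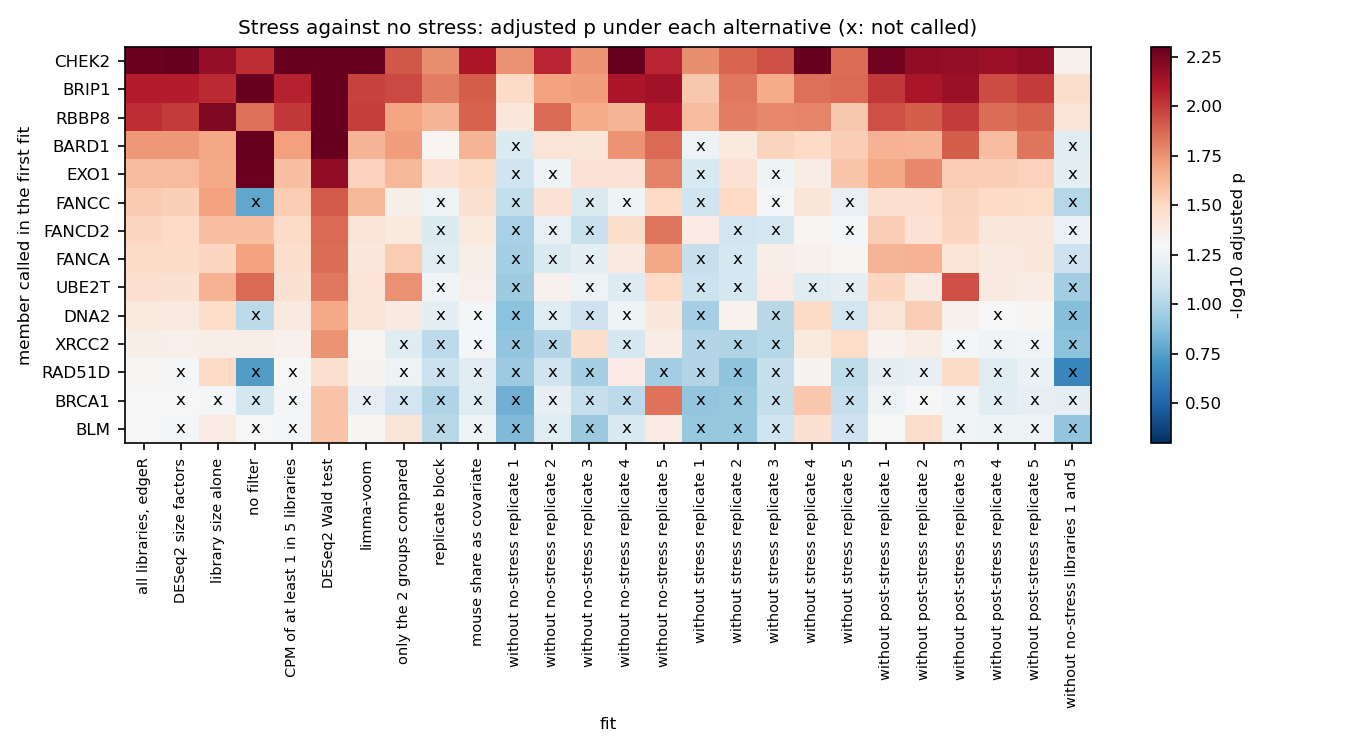
Minus log10 of the adjusted p of stress against no stress (colour) for the 14 called members, in the fit with all libraries and in 25 alternatives, with a cross where the member was not called. CHEK2, BRIP1 and RBBP8 have no cross, while BRCA1, BLM and RAD51D lose the call in most alternatives.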

How the data were processed

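RNA of 15 tumours was analysed as gene counts. The authors trimmed reads with Trimmomatic (0.39), aligned them with HISAT2 (2.2.1) to hg38 and mm10 and made the deposited raw counts with featureCounts (2.0.6), per the submitters' processing notes, which also name DESeq2 and edgeR. RNA was extracted with TRIzol, per the labels' protocols. The sources used here do not give the strandedness, the annotation used or the handling of reads that match both species, so overlapping genes are uncertain and conserved mouse reads can lie on human genes. No row named anything but a gene.

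Symbols matched 60463 of 60649 human identifiers, and exon lengths and coordinates came from GENCODE 29. After filterByExpr, 15435 human genes with 99.8% of human counts were scaled with TMM and entered a single edgeR quasi-likelihood fit of all 15 libraries (edgeR 4.0.16, limma 3.58.1, R 4.3.3), with robust dispersions and Benjamini-Hochberg adjustment over all tested genes in each of 3 comparisons. Log2 CPM used a prior count of 2. The SE was taken as the log2 fold change over the root of the F statistic. The procedure was tested on simulated data.

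Promoters were matched by symbol and searched by script. The 39 members and the other lists were chosen with earlier results of these data known. Values per tumour are given per role for the most and least changed members by p, plus BRCA1, and up to 4 genes per other list, with genes against the main direction added; some genes that this rule names are not reported here. Same-numbered tumours did not deviate together (correlations between -0.19 and 0.12), so the numbers were not used as pairs. Alternatives were DESeq2 size factors, library size alone, no filter, a CPM of at least 1 in 5 libraries, DESeq2 (1.42.0), limma-voom, only the 2 groups compared, a replicate block, the mouse share as covariate, an adjusted p under 0.01 and leaving out each library. The fit without no-stress tumours 1 and 5 was chosen after seeing the data.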

Additional observations from a re-analysis of the deposited data

Results flagged for a closer look

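In 6 of the 117 combinations of a member and a group, 1 tumour stood apart from the other 4 by Dixon's test for 5 values, which flags about 1 in 20 groups by chance. RAD51D reached 31.1 CPM in post-stress tumour 3, against 25.2 to 26.9 CPM in the other post-stress tumours. No-stress tumour 1 was high in EME1, with 13.4 CPM against 6.54 to 8.18 CPM, and in FANCB, with 10.04 CPM against 5.09 to 6.44 CPM in the other no-stress tumours. Values were low in 2 cases: FANCE with 2.62 CPM in post-stress tumour 1, against 3.83 to 4.21 CPM in the rest of that group, and FANCM with 8.48 CPM in no-stress tumour 5, against 13.2 to 13.8 CPM. ATR had 110.4 CPM in no-stress tumour 4, against 104 to 105.4 CPM in the other no-stress tumours. RAD51D is the 1 gene of these that was called lower with stress, a comparison in which its value of post-stress tumour 3 enters only through the shared estimate of the spread.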

How the results depend on the processing

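CHEK2 was the 1 higher member with stress in every alternative, and log2 fold changes kept their sign in all of them for 37 of the 39 members, the exceptions being MRE11 in 4 fits and ATM in 3, near 0. Of 1014 member values for stress against no stress, 876 stayed on their side of the threshold, 135 lost a call, 3 gained one (FANCI) and none reversed while called. The 13 lower members became 8 with no filter, 8 with the mouse share as covariate, 2 at an adjusted p under 0.01, 2 without no-stress tumours 1 and 5, and 2 to 12 when single tumours were left out. Over all genes 1613 calls became 375 at an adjusted p under 0.01, 546 without no-stress tumours 1 and 5, and 661 to 1834 when single tumours were left out. With the replicate number as a replicate block, whose numbers are not known to pair tumours and where 1 of 15 libraries correlated best with its own number, 4 members were lower (BARD1, BRIP1, EXO1 and RBBP8) and 990 genes were called with stress, 0 members and 57 genes with post-stress, and 0 genes between stress and post-stress.

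For post-stress against no stress, the 1 lower member became 2 with library size alone, 3 with DESeq2, and 0 with only the 2 groups compared, with the mouse share as covariate, without no-stress tumours 1 and 5 and at an adjusted p under 0.01, and 0 to 1 when single tumours were left out. The 130 genes called there became 504 with DESeq2, 49 with only the 2 groups, 38 with the mouse share, 32 without no-stress tumours 1 and 5, 26 at an adjusted p under 0.01 and 37 to 144 when single tumours were left out. The 6 genes called between stress and post-stress became 36 with no filter, 207 with DESeq2, 1 with only the 2 groups, 0 with the mouse share and at an adjusted p under 0.01, and 0 to 189 when single tumours were left out. The cause of these shifts was not tested. Depth limits the members least at high counts, while FANCE, RAD54B and RAD51B lay under 10 CPM.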
